A study of Mus musculus with 22 samples.

Results

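The mucus layer that coats the colon is built by goblet cells, and 7 of their genes are described here across sorted cell populations of the mouse colon crypt. The genes Muc2, Fcgbp, Clca1, Tff3, Zg16, Agr2 and Retnlb were taken by name, and they are 7 of the 24421 genes counted in the files. All 22 libraries came from wild-type male C57BL/6N mice of 5 to 7 weeks, with no treatment, and the 6 cell types differed by surface protein in flow sorting. Live cells without the endothelial marker Cd31 and the leukocyte marker Cd45, and with the epithelial marker Epcam, were divided by Cd44, Cd24 and cKit. Stem cells (3 libraries) had the highest Cd44, low Cd24 and no cKit, and absorptive progenitors (AbsPro, 3 libraries) had medium to high Cd44, low Cd24 and no cKit. SecPDG (4 libraries) was labelled with high Cd44, medium Cd24 and medium cKit, while the study's text places its Cd44 at medium. Per the study, this gate holds mainly progenitors of the secretory lineage and deep crypt secretory cells, goblet cells add little to it at most, and few goblet cells were recovered by the sort. Tuft cells (5 libraries) were cKit positive with high Cd24. Enterocytes (5 libraries) had low or no Cd44 and no Cd24, and enteroendocrine cells (EEC, 2 libraries) had low or no Cd44 with Cd24. Except for Stem and AbsPro, a library pooled cells of several mice.

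Colonic mucus is a net of the gel-forming mucin Muc2, which goblet cells fold in the endoplasmic reticulum, decorate with sugars in the Golgi, store in granules and release. Agr2, a protein disulfide isomerase of the endoplasmic reticulum, is needed to make it. Fcgbp, Clca1 (a metalloprotease) and the trefoil peptide Tff3 are secreted with it, while Zg16, a lectin that binds Gram-positive bacteria, and Retnlb, a resistin-like antibacterial protein, act in the layer against microbes.

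The gene starts of Muc2, Fcgbp and Agr2 are shown, because RefSeq's promoter table (GRCm38.p6) held these 3 of the 7 members. The 3 differed in the order of the cell types by mean level, mostly within the spread of neighbours, as given further on. Each line gives the 100 bases before the start, 5′ to 3′ on the plus strand, with TATAA in capitals, at chr7:141690240-141690339 for Muc2, chr7:28071136-28071235 for Fcgbp and chr12:35992825-35992924 for Agr2.
Muc2: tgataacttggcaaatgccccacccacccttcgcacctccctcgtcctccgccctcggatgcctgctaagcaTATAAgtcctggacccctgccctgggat
Fcgbp: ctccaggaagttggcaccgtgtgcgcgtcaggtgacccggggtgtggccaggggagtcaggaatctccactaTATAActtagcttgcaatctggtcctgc
Agr2: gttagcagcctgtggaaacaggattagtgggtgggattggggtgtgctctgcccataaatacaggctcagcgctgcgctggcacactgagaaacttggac
The letters TATAA lay at positions -28 to -24, counted from the base before the start as -1, in both Muc2 and Fcgbp, and Muc2 had the letters a second time at -174 to -170, before the bases shown. Agr2 had no TATAA on either strand of the 250 bases before its start, and 22.8% of 32851 promoters had one in a window of that length. In GENCODE M21, however, the Agr2 gene starts at chr12:35992907, inside the bases shown, while for Muc2 and Fcgbp both sources give the same start. Positions in Agr2 are thus not aligned with those in Muc2 and Fcgbp. The search took exact letters only, and near matches such as cataaata in the Agr2 line were not counted. CANNTG, the letters of an E-box, to which factors such as Atoh1 bind, occurred 3 times before Fcgbp, 2 times before Muc2 and 1 time before Agr2, and 66.2% of promoters had it. These matches did not overlap TATAA. Neither ACGTG (16.6% of promoters) nor TGTTTA (12.03%) occurred in the 3 windows on either strand.

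Libraries held 4122122 to 22462518 read counts on genes. Reads matched to no gene feature are given as a share of reads on genes, with no feature or ambiguous. This class does not separate reads in introns from reads between genes. It made up 40.9% to 49.4% in each Stem, AbsPro and SecPDG library and 43.4% to 68.0% in Tuft. In Enterocyte it was 66.8% to 83.1%, and it was 89.7% in EEC 1 against 64.5% in EEC 2. The summed level of 1478 olfactory, vomeronasal and trace amine receptor genes, which colon epithelium is not known to transcribe, moved the same way. It was 13.1 to 153 CPM (counts scaled to the size of the library) in Stem, AbsPro and SecPDG, 176 to 1450 in Tuft, 759 to 3831 in Enterocyte, and 6886 in EEC 1 against 607 in EEC 2. The cell type markers were not confined to their own gates. All 5 tuft markers found in the files were called higher than in Stem in Tuft and in EEC, and 4 of 5 were in SecPDG and in Enterocyte. All 5 enteroendocrine markers were called higher in EEC and in Enterocyte, with sums of 597666 and 1715500 normalized counts in EEC and 6787 to 26761 in Enterocyte. Of the 5, 2 were called higher in AbsPro, 2 in SecPDG and 3 in Tuft, and the AbsPro sums were 3185 to 14551. Enterocyte markers had a mean sum of 56642 in Enterocyte, 74790 in AbsPro, 76156 in EEC and 17540 in Stem, and all 5 stem markers were called lower in SecPDG, Enterocyte and EEC. Deep crypt secretory markers (Reg4, Kit, Dll1 and Dll4, where Reg4 gave most of the sum and cKit was itself gated on) summed to 122830 to 245682 normalized counts in SecPDG and 52080 to 148349 in Tuft, against 3067 to 4698 in Stem. These sums were 8556 to 30534 in AbsPro, above every Stem library, 2168 to 22318 in Enterocyte, and 1735 and 2100 in EEC. Tuft markers summed to 578 to 952 in SecPDG and 22867 to 61828 in Tuft, so the Tuft libraries held both marker lists. Immune, stromal and endothelial marker sums were at most 3402, 2063 and 1858 in any library. In bulk samples such as these, more cells of a type and more RNA per cell cannot be told apart. The SecPDG and Tuft files were named in a different form from the other 4 cell types, and a processing difference between the forms cannot be told apart from cell type outside the pairs within a form.

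Together the 7 genes took 0.135% to 0.213% of the counts on genes in Stem and 0.555% to 1.63% in AbsPro. The share was 4.61% to 13.8% in SecPDG, 5.55% to 7.98% in Tuft, 2.40% to 5.07% in Enterocyte, and 0.489% and 0.387% in the EEC libraries. Wilson 95% intervals were at most 0.0169 percentage points to either side, which covers counting error only. SecPDG 2 was the library at 13.8%, and the other 3 SecPDG libraries lay between 4.61% and 6.81%.

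**Figure D1:**
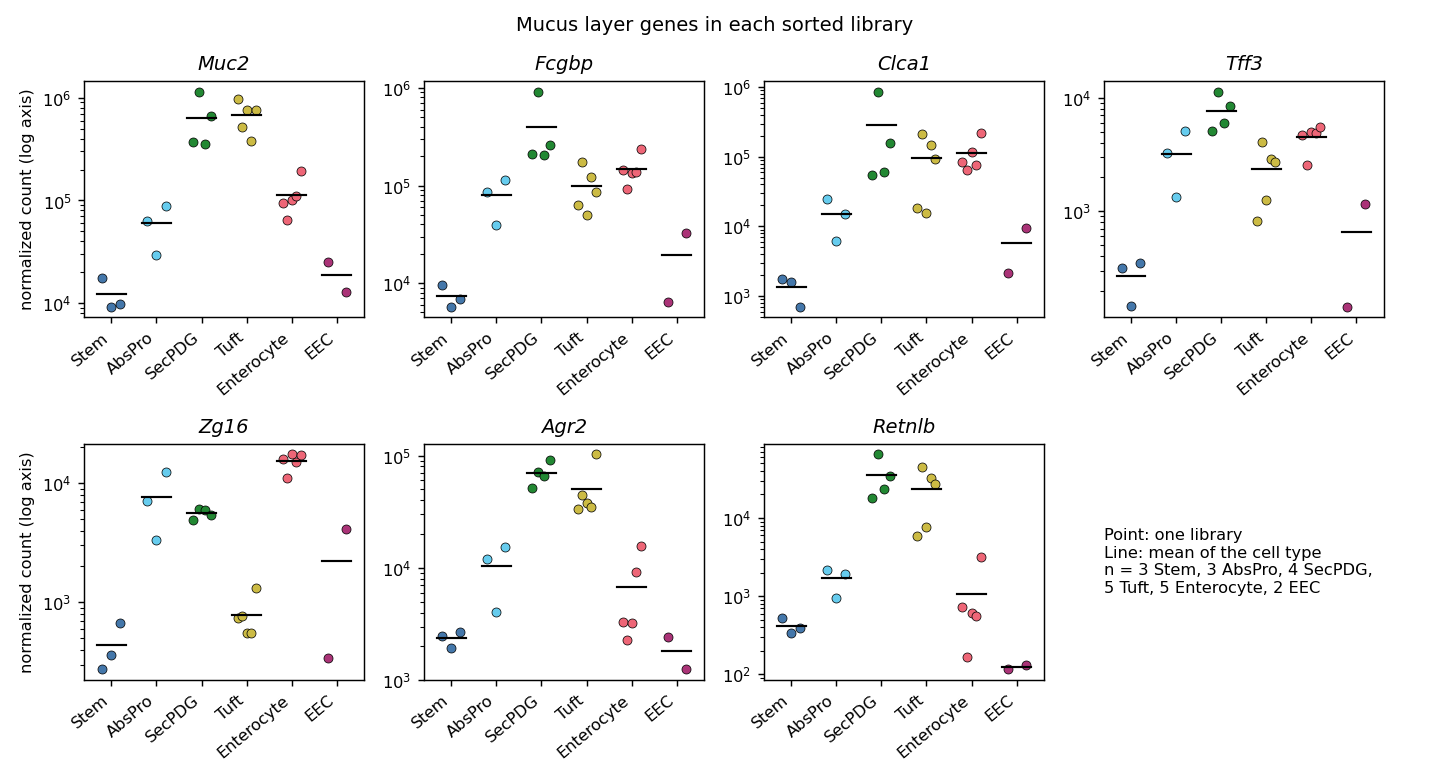
Normalized count (log axis) of each of the 7 genes in the 22 libraries, by sorted cell type; each point is a library and each line the mean of the cell type. Muc2, Agr2 and Retnlb are high in SecPDG and Tuft, whereas the highest Zg16 levels are in Enterocyte, where they reach 17429.

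Against Stem, all 7 genes were called higher in SecPDG, 6 in Tuft, 5 in Enterocyte, 2 in AbsPro and 1 in EEC, and none was called lower in any of the 5. With DESeq2's size factors the AbsPro count was 5 and the EEC count 3. Calls needed an adjusted p under 0.01 and 50 or more normalized counts on average over the 22 libraries. Of the 22781 genes tested, 3.38% were called higher in SecPDG, 7.84% in Tuft, 10.7% in Enterocyte, 0.496% in AbsPro and 10.8% in EEC. The median log2 fold change of the 7 genes was 5.70 in SecPDG, 4.42 in Tuft, 4.07 in Enterocyte, 3.43 in AbsPro and 1.37 in EEC. Over the 13188 genes with a mean of at least 50 the medians were -0.06, -0.09, -0.30, 0.04 and -0.30, so the values for Enterocyte and EEC are to be read against a median gene below 0.

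**Figure D2:**
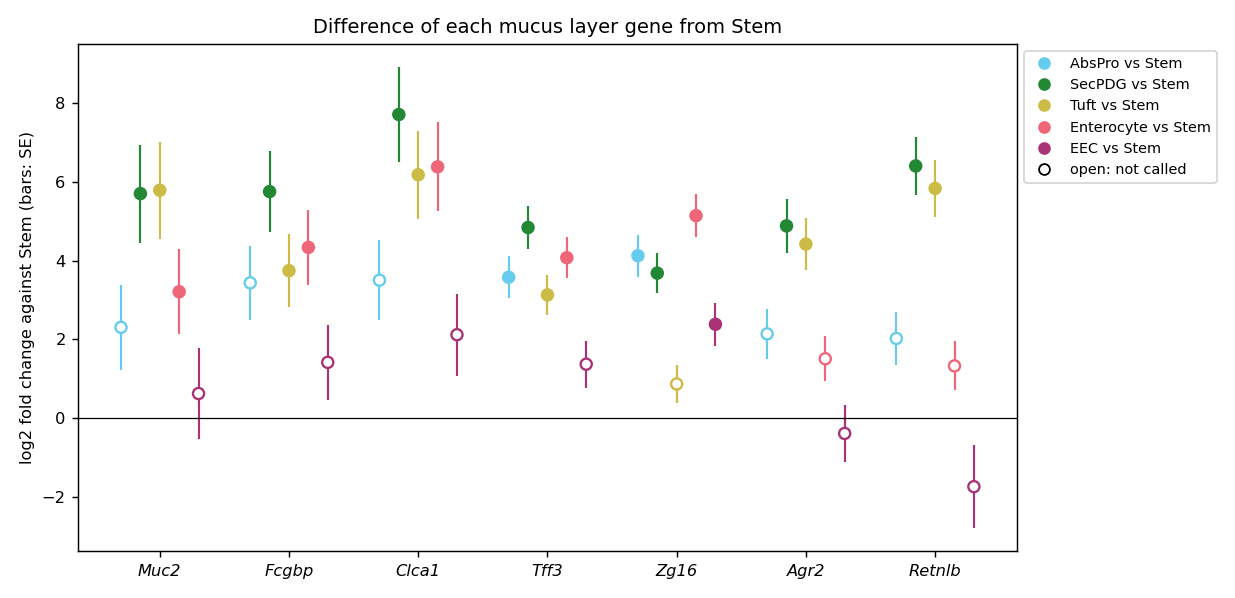
Log2 fold change of each gene against Stem in the 5 other cell types, with the standard error as a bar; filled points were called and open points were not. The 7 SecPDG points run from 3.68 for Zg16 to 7.71 for Clca1, and the open Tuft point is Zg16 at 0.86.

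Muc2, the mucin that forms the gel, was counted most in SecPDG and Tuft. The Stem libraries had 17619, 9243 and 9849 normalized counts of Muc2. SecPDG had 374475, 1142530, 357958 and 669289, and Tuft had 970200, 518817, 755045, 377862 and 753527. Every SecPDG and Tuft library lay above every library of the other 4 cell types, and the SecPDG and Tuft ranges overlapped. Enterocyte libraries had 95343, 64556, 100230, 110242 and 194508, AbsPro had 63492, 29153 and 88399, and EEC had 24908 and 12773. Muc2 was higher than in Stem by 5.70 ± 1.24 (log2, SE) in SecPDG (adjusted p = 0.00088), by 5.79 ± 1.24 in Tuft (adjusted p = 0.00039) and by 3.21 ± 1.07 in Enterocyte (adjusted p = 0.0096). In AbsPro the log2 value was 2.30 ± 1.08 (adjusted p = 0.49), which passed the threshold with DESeq2's test, its size factors, library totals or the 2 cell types alone. Between Tuft and SecPDG it was 0.09 ± 0.85 (adjusted p = 0.95). The SecPDG call was lost without Stem 1 (6.06, adjusted p = 0.0186). The Enterocyte call was lost without Stem 1, 2 or 3 (adjusted p = 0.0351, 0.0316 and 0.0299) and without Enterocyte 2 or 5 (adjusted p = 0.0120 and 0.0177).

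Agr2, which assists the making of Muc2, was likewise highest in the SecPDG and Tuft gates. Stem libraries had 2454, 1945 and 2702 normalized counts of Agr2. SecPDG had 51201, 70915, 65158 and 91561, and Tuft had 33287, 44995, 37535, 34648 and 102312. These 9 libraries were the highest of the 22. Enterocyte had 3272, 2268, 3216, 9122 and 15720, AbsPro had 11884, 4013 and 15340, and EEC had 2399 and 1245. The Enterocyte libraries overlapped both the Stem and the AbsPro range. Agr2 was higher than in Stem by 4.88 ± 0.69 in SecPDG (adjusted p = 3.5e-07) and by 4.42 ± 0.67 in Tuft (adjusted p = 9.2e-07), and the Enterocyte value was 1.50 ± 0.58 (adjusted p = 0.022). DESeq2's size factors gave 1.93 for Enterocyte (adjusted p = 0.00058), which is past the threshold. Agr2 was lower in Enterocyte, with log2 differences of -3.38 ± 0.52 from SecPDG (adjusted p = 7.8e-07) and -2.91 ± 0.50 from Tuft (adjusted p = 1.0e-05). It was higher in Tuft than in AbsPro by 2.28 ± 0.59 (adjusted p = 0.0043), a call lost without AbsPro 1 (adjusted p = 0.0119), AbsPro 2 (adjusted p = 0.0722) or Tuft 5 (adjusted p = 0.0102).

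Retnlb, the antibacterial resistin-like protein, was higher in every SecPDG and Tuft library than in any library of the other 4 cell types. SecPDG had 18147, 64908, 23160 and 34422 normalized counts of Retnlb, and Tuft had 5895, 44531, 7611, 32632 and 27556. Stem had 524, 338 and 389, AbsPro had 2174, 939 and 1939, and EEC had 116 and 130. Enterocyte had 735, 167, 617, 550 and 3197. The highest library outside SecPDG and Tuft was Enterocyte 5. Retnlb was higher than in Stem by 6.40 ± 0.75 in SecPDG (adjusted p = 2.1e-09) and by 5.83 ± 0.72 in Tuft (adjusted p = 6.8e-09). It was lower in Enterocyte, with log2 differences of -5.08 ± 0.56 from SecPDG (adjusted p = 2.1e-10) and -4.51 ± 0.54 from Tuft (adjusted p = 1.8e-09), and against Stem the log2 value was 1.32 ± 0.62 (adjusted p = 0.060). The Retnlb levels in EEC rested on 64 and 107 read counts, in libraries where a receptor gene had a mean of 19.2 and 5.39 counts.

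Zg16, the lectin that binds Gram-positive bacteria, had an order of cell types unlike that of the other 6. Enterocyte libraries had 15932, 11016, 17429, 15183 and 17410 normalized counts of Zg16, and AbsPro had 7157, 3348 and 12327. SecPDG had 4922, 6064, 5931 and 5447, a spread of 9.28% of its mean. Tuft had 735, 769, 555, 550 and 1316, and Stem had 273, 359 and 672. All Tuft libraries lay under the lowest SecPDG, AbsPro and Enterocyte library, and Tuft overlapped Stem. Zg16 was higher than in Stem by 5.14 ± 0.54 in Enterocyte (adjusted p = 8.6e-11), by 4.12 ± 0.53 in AbsPro (adjusted p = 3.8e-06) and by 3.68 ± 0.51 in SecPDG (adjusted p = 2.4e-07). The Tuft value was 0.86 ± 0.48 (adjusted p = 0.14). Zg16 was higher in Enterocyte than in Tuft by 4.28 ± 0.41 (adjusted p = 2.6e-12) and than in SecPDG by 1.46 ± 0.39 (adjusted p = 0.0017). Tuft lay under SecPDG, both being files of the same name form, with a log2 difference of -2.81 ± 0.41 (adjusted p = 9.4e-07). EEC 1 had 343 and EEC 2 had 4100. The called difference of 2.38 ± 0.55 between EEC and Stem (adjusted p = 0.00042) was -0.35 without EEC 2 (adjusted p = 0.71). Enterocyte markers summed to 20936 in EEC 1 and 131375 in EEC 2, and their part in the EEC level of Zg16 was not tested.

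Clca1, the secreted metalloprotease, had the widest spread of the 7 among SecPDG libraries and among Tuft libraries. SecPDG had 53995, 856242, 59878 and 155435 normalized counts of Clca1, and Tuft had 18236, 211309, 15658, 147272 and 94243. Stem had 1736, 1593 and 705, AbsPro had 24484, 6100 and 15027, and EEC had 2164 and 9396. Enterocyte had 85027, 63652, 115318, 76145 and 219620, which lay above every AbsPro library and within the SecPDG range. Clca1 was higher than in Stem by 7.71 ± 1.21 in SecPDG (adjusted p = 3.1e-06), by 6.38 ± 1.13 in Enterocyte (adjusted p = 1.0e-05) and by 6.18 ± 1.12 in Tuft (adjusted p = 3.0e-05). Without SecPDG 2 the SecPDG value was 6.13 (adjusted p = 5.2e-06). The Enterocyte value against SecPDG was -1.33 ± 0.74 (adjusted p = 0.11), and it was 0.20 without SecPDG 2. Clca1 was higher in Enterocyte than in AbsPro by 2.88 ± 0.92 (adjusted p = 0.0092). That call was lost without any 1 of AbsPro 1, 2 or 3 (adjusted p = 0.0179, 0.0679 and 0.0322) or of Enterocyte 2, 3 or 5 (adjusted p = 0.0107, 0.0118 and 0.0182). The call of SecPDG over AbsPro, 4.21 ± 1.01 (adjusted p = 0.0035), was lost without AbsPro 2 (adjusted p = 0.0717), AbsPro 3 (adjusted p = 0.0226) or SecPDG 2 (2.70, adjusted p = 0.0375).

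Fcgbp, a large secreted protein with von Willebrand domains, was called higher than in Stem in SecPDG, Enterocyte and Tuft. SecPDG had 212303, 912578, 205824 and 262331 normalized counts of Fcgbp, and Enterocyte had 143081, 91571, 135293, 139141 and 236006. Tuft had 62937, 175124, 50209, 121759 and 84946, and AbsPro had 85333, 39048 and 115152. Stem had 9551, 5732 and 6900, and EEC had 6378 and 32896. SecPDG overlapped Enterocyte in 2 of its 4 libraries and lay above Tuft in all 4. Fcgbp was higher than in Stem by 5.75 ± 1.04 in SecPDG (adjusted p = 4.6e-05), by 4.33 ± 0.95 in Enterocyte (adjusted p = 0.00023) and by 3.74 ± 0.92 in Tuft (adjusted p = 0.0019), the last lost without Stem 1 (adjusted p = 0.0161). AbsPro stood at 3.43 ± 0.94 (adjusted p = 0.049), short of the threshold. It passed with DESeq2's size factors (3.36, adjusted p = 0.00027), and also with DESeq2's own test, upper quartile factors, library totals, no filter or the 2 cell types alone.

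Tff3, the trefoil peptide, was among the genes of lower count and followed Fcgbp. Its normalized counts were 5093 to 11237 in SecPDG, 2573 to 5511 in Enterocyte, 1330 to 5031 in AbsPro, 829 to 4024 in Tuft and 146 to 347 in Stem, and they were 145 and 1167 in EEC. The Stem range lay wholly below those of SecPDG, AbsPro, Tuft and Enterocyte. Tff3 was higher than in Stem by 4.84 ± 0.54 in SecPDG (adjusted p = 4.6e-10), by 4.07 ± 0.51 in Enterocyte (adjusted p = 1.2e-08), by 3.58 ± 0.53 in AbsPro (adjusted p = 3.3e-05) and by 3.13 ± 0.50 in Tuft (adjusted p = 2.9e-06). Tuft differed from SecPDG by -1.71 ± 0.37 (adjusted p = 0.0015), a call lost without Tuft 1 (adjusted p = 0.0114) or Tuft 3 (adjusted p = 0.0109).

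Between the other cell types, the calls fell mostly on Zg16, Agr2 and Retnlb. Of the 7 genes, 3 differed between Enterocyte and Tuft, where 8.43% of all genes tested were called, and 3 between Enterocyte and SecPDG, where 23.3% were. Zg16 was higher and Agr2 and Retnlb were lower in Enterocyte in both comparisons. Tuft against SecPDG gave 2 (3.37% of all genes), Tff3 and Zg16, both lower in Tuft. SecPDG against AbsPro gave 3 (3.72%), Agr2, Clca1 and Retnlb, all higher in SecPDG, of which Agr2 was lost without AbsPro 2 (adjusted p = 0.0502). Tuft against AbsPro gave 3 (8.13%), with Agr2 and Retnlb higher and Zg16 lower in Tuft, and Enterocyte against AbsPro gave 1 (16.2%), Clca1. Muc2 was called in none of these comparisons, but several were called with DESeq2's size factors. Muc2 was then lower in Enterocyte than in SecPDG (-1.91, adjusted p = 0.00018) and Tuft (-2.25, adjusted p = 2.6e-05). It was then higher than in AbsPro in SecPDG (3.42, adjusted p = 6.5e-06) and Tuft (3.75, adjusted p = 9.0e-07).

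EEC, with 2 libraries, had fewer counts of most of the genes than the other differentiated gates. Against SecPDG 6 of 7 were lower in EEC (21.2% of all genes called in either direction), and Zg16 stood at -1.30 ± 0.53 (adjusted p = 0.037). Against AbsPro 4 were lower (18.3%), against Tuft 3 (9.3%) and against Enterocyte 2 (4.69%). With DESeq2's size factors 0 were called in either direction against AbsPro, 6 against Tuft and 5 against Enterocyte. Those against Tuft included Zg16, which was higher in EEC (1.79, adjusted p = 0.0011). Among the TMM calls, Muc2 against Tuft (-5.16 ± 1.45, adjusted p = 0.0071) was lost without Tuft 1, 2 or 3 (adjusted p = 0.0164, 0.0107 and 0.0128). Muc2 against SecPDG was lost without SecPDG 1 (adjusted p = 0.0142). Without EEC 1, Tff3 was no longer called against AbsPro (adjusted p = 0.0357) or Enterocyte (adjusted p = 0.0149), nor Zg16 against AbsPro (adjusted p = 0.0934). Agr2 against AbsPro was lost without EEC 2 (adjusted p = 0.0217) or AbsPro 3 (adjusted p = 0.0106), and Zg16 against AbsPro also without AbsPro 3 (adjusted p = 0.0286).

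The order of neighbouring cell types was mostly within their spread. Ranked by mean, no neighbours were called for Muc2, Fcgbp, Clca1, Tff3 or Zg16, and for Agr2 and Retnlb the step from Tuft to AbsPro was the 1 that was called (2.28 and 3.81 on the log2 scale). By mean normalized count, Zg16 had the order Enterocyte, AbsPro, SecPDG, EEC, Tuft and Stem, and SecPDG or Tuft came first for each of the other 6. For Tff3 the first place depended on the scaling. Scaled to library totals alone, its mean level per kilobase was 865.0 in SecPDG and 866.6 in Enterocyte. On that scale the means of Clca1 and Fcgbp were highest in SecPDG. Their medians per kilobase were higher in Enterocyte than in SecPDG, 2671 against 1702 for Clca1 and 2059 against 1843 for Fcgbp. Without SecPDG 2, the log2 difference of Clca1 in Enterocyte from SecPDG was 0.20.

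Divided by transcript length, the levels of the 7 genes can be set beside each other, and their mix differed between gates. As a percent of the summed level per kilobase, Zg16 was 15.2 to 27.2 in Enterocyte and 18.0 to 23.4 in AbsPro, against 1.31 to 4.05 in SecPDG and 0.419 to 0.647 in Tuft. Retnlb ran the other way, with 12.8 to 14.4 percent in SecPDG and 0.378 to 2.55 percent in Enterocyte. Clca1 took 20.8 to 33.3 percent of the level per kilobase in Enterocyte and 4.95 to 10.7 percent in AbsPro. Agr2 was the leading gene per kilobase in every Stem library, at 34.4 to 42.0 percent. It also led in SecPDG 1, 3 and 4 (32.1, 36.1 and 32.3), AbsPro 1 and 3 (24.3 and 23.6) and Tuft 5 (40.8). Muc2 held 25.7 to 67.1 percent in Tuft and 13.4 to 15.5 percent in Enterocyte. Shares of 1 total are bound to each other, and these are given as a description.

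**Figure D3:**
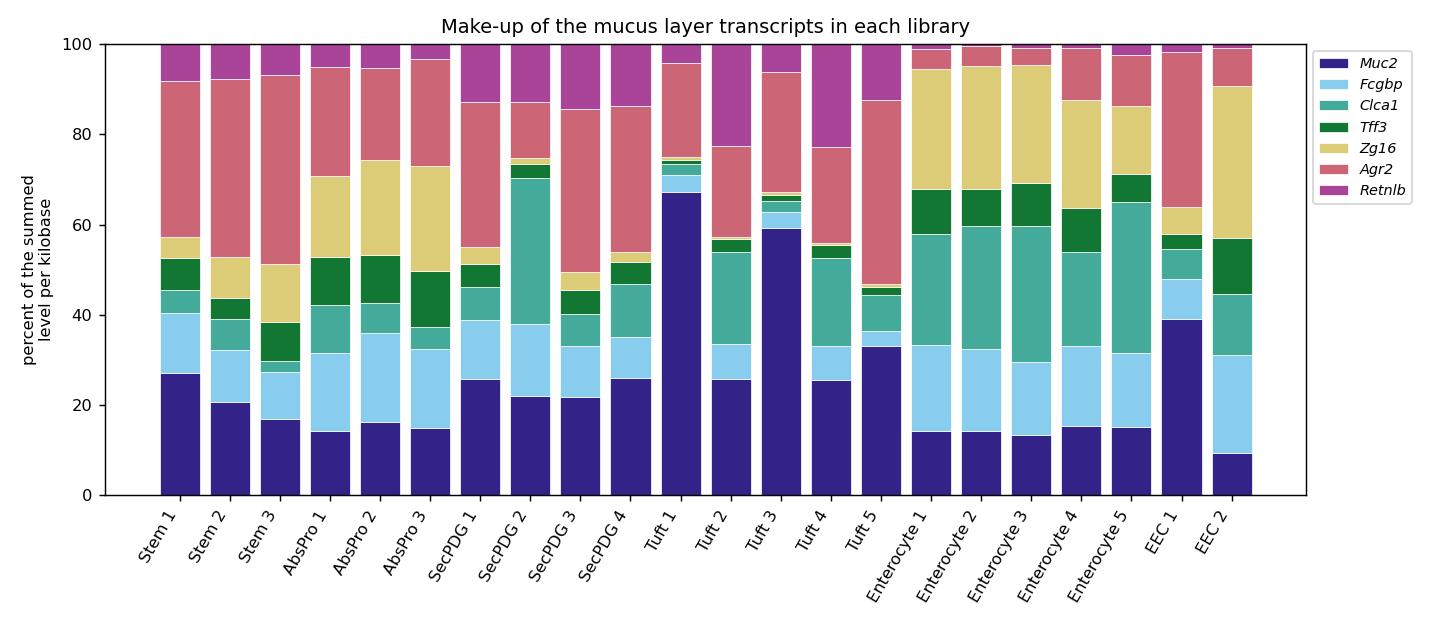
Percent of the summed level per kilobase that each of the 7 genes took in each of the 22 libraries; each stacked bar is a library and adds to 100. The Enterocyte bars have 15.2 to 27.2 percent Zg16 and at most 2.55 percent Retnlb, and the Tuft bars have at most 0.647 percent Zg16.

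Within Enterocyte and AbsPro libraries the ratio of Zg16 to Muc2 per kilobase kept to a narrow range. Its log2 was 0.00 to 0.96 in Enterocyte and 0.34 to 0.64 in AbsPro. In SecPDG it was -4.07 to -2.43, and in Tuft -6.92 to -5.68, so that none of these gates overlapped the Enterocyte or AbsPro values. Fcgbp to Muc2 was 0.13 to 0.43 in Enterocyte and 0.23 to 0.27 in AbsPro, against -1.50 to -0.48 in SecPDG and -4.10 to -1.72 in Tuft.

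The Tuft libraries were split in a way that Muc2, Agr2 and Zg16 did not follow. Tuft 1 and Tuft 3 had the lowest Clca1, Retnlb, Fcgbp and Tff3 of the 5, and also the lowest sums of deep crypt secretory markers, 52080 and 54688 against 108019 to 148349. Muc2 was highest in Tuft 1, at 970200, and Muc2 in Tuft 3 was second, at 755045. Agr2 was lower in Tuft 4 (34648) than in Tuft 3 (37535). Zg16 was lower in Tuft 4 (550) than in Tuft 1 (735) and Tuft 3 (555). In SecPDG, library 2 had the most normalized counts of Muc2, Fcgbp, Clca1, Tff3, Zg16 and Retnlb and the highest deep crypt secretory sum (245682). For Zg16 this rested on the TMM factor used to normalize that library, 0.6163. Scaled to library totals alone, Zg16 per kilobase was 429.7 in SecPDG 2, below the other SecPDG libraries at 475.2 to 594.3. Among Enterocyte libraries, number 5 had the most normalized counts of Muc2, Fcgbp, Clca1, Tff3, Agr2 and Retnlb. It also had the highest deep crypt secretory sum, 22318 against 2168 to 9753. With library totals alone, Tff3 per kilobase was higher in Enterocyte 1 and 3 (1083 and 1215) than in Enterocyte 5 (818). The part of deep crypt secretory cells in these differences was not tested.

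**Figure D4:**
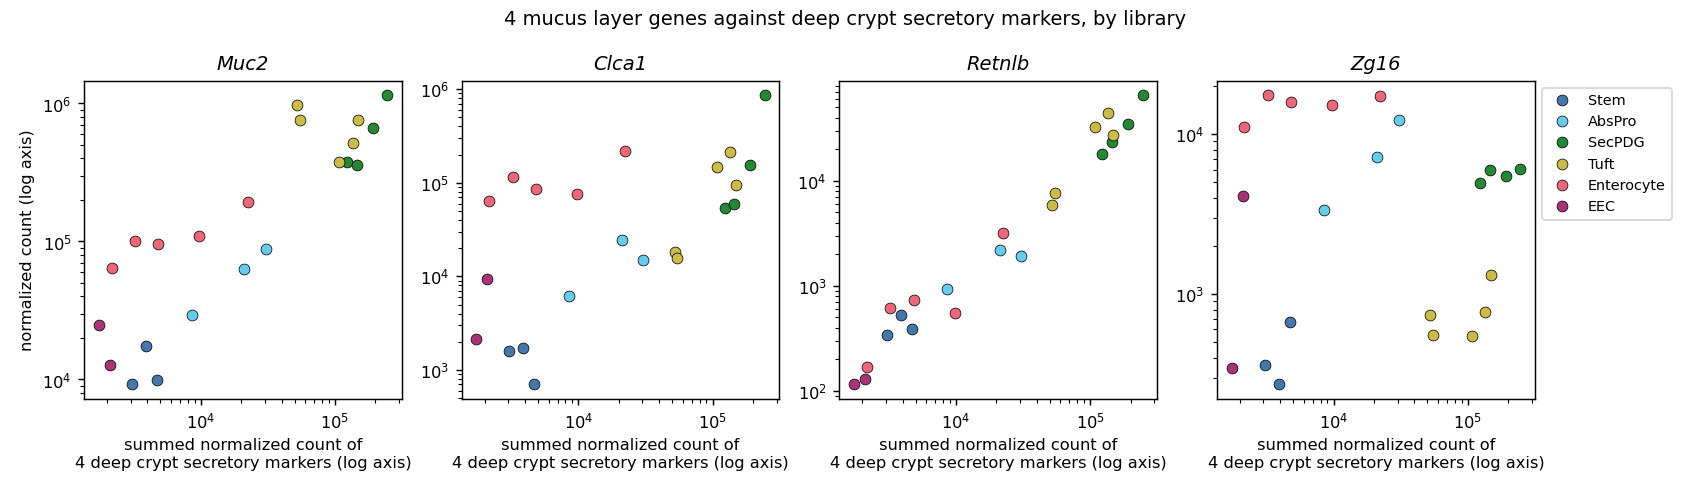
Normalized count of 4 mucus layer genes against the summed normalized count of 4 deep crypt secretory markers (Reg4, Kit, Dll1 and Dll4), both on log axes, with 1 point for each of the 22 libraries. Retnlb lies along 1 rising band from 116 to 64908, while the Enterocyte libraries have 63652 or more of Clca1 and 11016 or more of Zg16 at marker sums of 2168 to 22318.

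Across the 22 libraries, the patterns of the 7 genes were alike to differing degrees. These correlations are of log2 CPM over libraries that share cell types and differ in depth, and they are descriptions. Pearson's r was 0.96 for Agr2 and Retnlb, 0.91 for Muc2 and Agr2 and 0.87 for Muc2 and Retnlb. It was 0.97 for Fcgbp and Tff3, 0.95 for Fcgbp and Clca1 and 0.89 for Clca1 and Tff3. Between these 2 sets of genes it ran from 0.59 (Tff3 and Retnlb) to 0.77 (Muc2 and Clca1). By rank, Spearman's rho was 0.76 for Clca1 and Tff3, 0.64 for Muc2 and Fcgbp and 0.54 for Muc2 and Tff3. Between the sets rho was at most 0.71 (Muc2 and Clca1), close to the 0.76 of Clca1 and Tff3. Zg16 had r = 0.76 with Tff3 and 0.67 with Fcgbp, 0.56 with Clca1, 0.14 with Muc2, 0.04 with Agr2 and -0.02 with Retnlb.

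**Figure D5:**
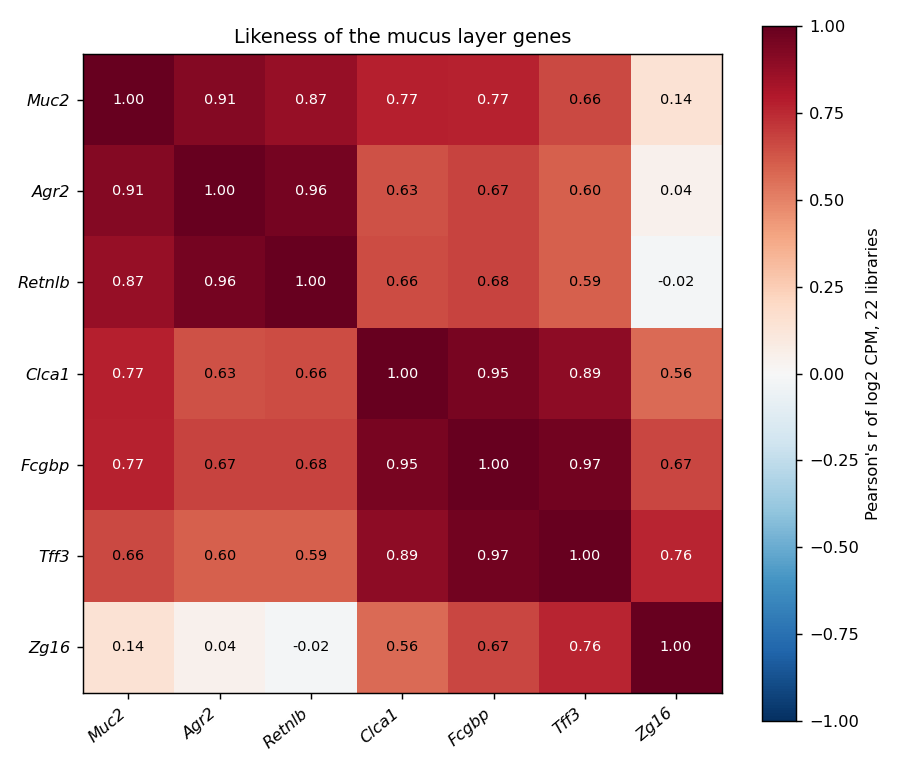
Pearson's r of log2 CPM over 22 libraries for each pair of the 7 genes, with the value in each cell. Muc2, Agr2 and Retnlb are at 0.87 to 0.96 with each other, and Zg16 is at -0.02 to 0.14 with them.

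Among 13188 genes with a mean of at least 50 normalized counts, those nearest in pattern differed by member. Agr2 was nearest to Hpd (r = 0.986), Spink4 (0.980) and Rap1gap (0.978), and Retnlb to Reg4 (0.980), Spink4 (0.969) and Hpd (0.957). Reg4, a secreted lectin that marks deep crypt secretory cells, averaged 165136 normalized counts in SecPDG and 88412 in Tuft against 7333 in Enterocyte. Muc2 was nearest to Gm1123 (0.971), Slc17a9 (0.963) and Bace2 (0.958). Clca1 was nearest to Ang4 (0.940), an antimicrobial angiogenin, St3gal4 (0.934) and Fhl1 (0.917). Fcgbp was nearest to Gal3st2 (0.937), Scnn1a (0.936) and Scin (0.934), and Tff3 to Clec2h (0.948), Gal3st2 (0.911) and Scin (0.90). Zg16 was nearest to Klf4 (0.889), a transcription factor of differentiated goblet and absorptive cells, Pmp22 (0.873) and Cables1 (0.857).

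Genes of 6 lists were also compared with Stem. Beside the shares called higher given above, 0.0922% of the 22781 genes tested were called lower in AbsPro, 1.59% in SecPDG, 4.23% in Tuft, 11.5% in Enterocyte and 9.13% in EEC, and the counts of each list are to be read against both shares. Transcription factors of the goblet lineage had 9 of 10 called higher in SecPDG (list median 2.44) and 6 in Tuft (1.84). In Enterocyte 4 were called higher and 1, Foxa3, lower (-1.33 ± 0.35, adjusted p = 0.0012). AbsPro had 3 higher, and EEC had 2 higher and 1 lower, Creb3l1 (-2.24 ± 0.58, adjusted p = 0.0015). Atoh1, the bHLH factor that starts the secretory lineage, was higher by 5.06 ± 0.50 in SecPDG (adjusted p = 1.2e-11) and 4.13 ± 0.48 in Tuft (adjusted p = 9.8e-10). It was also higher by 2.47 ± 0.49 in AbsPro (adjusted p = 0.0015) and by 2.11 ± 0.46 in Enterocyte (adjusted p = 0.00022). Klf4 was highest in Enterocyte at 9834 ± 2983 normalized counts (SD, n = 5), with 5335 ± 1782 in SecPDG (n = 4). Xbp1, which drives the secretory machinery, was higher by 2.31 ± 0.38 in SecPDG (adjusted p = 9.6e-06) and 1.78 ± 0.37 in Tuft (adjusted p = 0.00022), and the Enterocyte value was 0.20 ± 0.36.

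The list chosen for mucin O-glycosylation had 13 of 22 genes called higher and 1 lower in SecPDG (list median 2.56), and as many in Tuft (2.01). Not all of its genes are particular to mucins, B4galnt1 being 1 that is not. Enterocyte had 5 higher and 3 lower (over all genes 10.7% and 11.5%), AbsPro 2 higher, and EEC 1 higher and 3 lower (10.8% and 9.13%). Galnt7, which starts or extends O-glycans, was higher by 2.85 ± 0.43 in SecPDG (adjusted p = 1.6e-06) and 2.25 ± 0.41 in Tuft (adjusted p = 3.7e-05). Gcnt3, a core-branching enzyme, was higher by 1.87 ± 0.39 in SecPDG (adjusted p = 0.00042) and by 1.29 ± 0.37 in Tuft (adjusted p = 0.0068). Galnt4 and B4galnt2, both among the 4 most counted of the list, were called in none of the 5. Gcnt4 went against the list, by -3.41 ± 0.61 in SecPDG (adjusted p = 3.6e-05) and -1.56 ± 0.45 in Tuft (adjusted p = 0.0077). In Enterocyte B4galnt1 (-2.35 ± 0.35), Slc35a1 (-1.41 ± 0.33) and St6galnac2 (-1.58 ± 0.32) were lower, and in EEC, Gcnt1 went against most of the called genes at 4.22 ± 1.02.

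Genes of folding and export had 13 of 18 called higher in SecPDG and 6 in Tuft, and none in AbsPro, Enterocyte or EEC, where EEC had 3 lower. The medians of the list were 1.72 in SecPDG, 0.96 in Tuft and -0.30 in Enterocyte, and the last was also the median of all genes. Hspa5, the main chaperone of the endoplasmic reticulum, was higher by 1.93 ± 0.45 in SecPDG (adjusted p = 0.0019) and Pdia3, a disulfide isomerase, by 2.01 ± 0.47 (adjusted p = 0.0020), while Hsp90b1 stood at 1.16 ± 0.49 (adjusted p = 0.16) and Calr at 1.49 ± 0.48 (adjusted p = 0.043).

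Of 19 other goblet products found in the files, 14 were higher and 2 lower in SecPDG (list median 4.69) and in Tuft (3.73), 13 higher and 2 lower in Enterocyte, 6 higher and 2 lower in EEC, and 4 higher in AbsPro. Spink4, a protease inhibitor of goblet granules, was higher by 5.54 ± 0.85 in SecPDG (adjusted p = 2.0e-06) and 5.10 ± 0.82 in Tuft (adjusted p = 3.4e-06), with 1.75 ± 0.69 in Enterocyte (adjusted p = 0.026). Klk1, a kallikrein protease, was higher by 3.97 ± 0.52 in SecPDG (adjusted p = 6.2e-08) and Slc12a8, a transporter, by 5.33 ± 0.49 (adjusted p = 1.7e-12). The 2 that were lower in all 4 of these were Nlrp6, an inflammasome sensor (-2.31 ± 0.37 in SecPDG and -2.05 ± 0.35 in Enterocyte), and Tgm2, a transglutaminase (-1.44 ± 0.31 and -2.86 ± 0.31).

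Of 10 listed mucins that stay in the membrane, 5 were found in the files, with list medians of 0.22 in SecPDG, 1.24 in Tuft and 1.96 in Enterocyte. Of the 5, SecPDG had 1 higher, Muc13 (1.86 ± 0.48, adjusted p = 0.0066), and Enterocyte had 2 higher, Muc13 (1.52 ± 0.46, adjusted p = 0.0049) and Muc1 (2.89 ± 0.48, adjusted p = 4.2e-06). EEC had 1 lower, Muc4 (-1.82 ± 0.52, adjusted p = 0.0032). Muc20 was called in none of the 5.

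Of 18 near relatives (paralogs) of the 7 genes in the files, none was called in AbsPro, and SecPDG had 1 higher (Clca2) and 1 lower (Clca3a2). Tuft had 4 higher and 3 lower (over all genes 7.84% and 4.23%), Enterocyte 6 and 4 (10.7% and 11.5%), and EEC 6 and 3 (10.8% and 9.13%). Clca3b, the most counted paralog and a relative of Clca1, had 24661 ± 3735 normalized counts in SecPDG (SD, n = 4), 20622 ± 3888 in AbsPro (n = 3) and 2872 ± 2213 in Enterocyte (n = 5), and it was lower than in Stem by -4.06 ± 0.48 in Enterocyte (adjusted p = 1.8e-09) and -1.88 ± 0.45 in Tuft (adjusted p = 0.0015). Clca4a, another relative, was at 2151 ± 283 in Enterocyte and 371 ± 149 in Tuft. The other Clca relatives Clca3a1, Clca4b and Clca2 had means of at most 188 in the cell types other than Stem. Reads shared between such copies could be counted to either or dropped, which makes their split uncertain. The other gel-forming mucins Muc5b, Muc5ac, Muc6 and Muc19, with the Fcgbp relative 9530053A07Rik, had means of at most 49.8 in AbsPro and SecPDG and of 70.2 to 696 in Tuft, Enterocyte and EEC, the cell types with the most receptor gene counts, and the part of such reads was not tested. Agr3, the relative of Agr2, had a mean of 232 ± 72.1 in EEC (n = 2) and 43.7 ± 20.4 in SecPDG (n = 4).

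Other readouts of the same libraries held few entries for the 7 genes. Coverage-based estimates of the share of transcripts that use the distal polyadenylation site were listed for Muc2, Clca1 and Zg16. For Muc2 the share was 0.21 to 0.28 in Stem, 0.24 to 0.27 in SecPDG, 0.21 to 0.32 in Tuft, 0.22 to 0.30 in Enterocyte and 0.10 to 0.25 in AbsPro, ranges that overlapped, and the EEC values were 0.11 and 0.46. For Clca1 it was 0.15 to 0.76 in Stem, against 0.44 to 0.54 in Enterocyte, 0.42 to 0.48 in Tuft, 0.36 to 0.45 in SecPDG, 0.32 to 0.41 in AbsPro and 0.35 in both EEC libraries. Zg16 was at 0.45 to 0.51 in Enterocyte, 0.40 to 0.52 in SecPDG, 0.31 to 0.48 in Tuft, 0.29 to 0.48 in AbsPro and 0.26 and 0.36 in EEC, and the Stem values ran from 0.11 to 0.73 over the tables. Skipped-exon counts were listed for 5 exons of Muc2, 3 of Clca1 and 1 of Agr2, and at most 16 reads skipped any of them in a library. The lowest inclusion was 98.7%, at the Clca1 exon at chr3:145011739-145011845 (mm10), which is 107 bases long. No test was made on these entries, whose columns could be tied to a cell type but not to a single library.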

How the data were processed

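RNA of 22 sorted libraries was made into paired-end libraries with a low input kit. Per the labels and the study's methods, the authors aligned reads with STAR 2.5.2a to UCSC mm10 and deposited read counts per gene from HTSeq 0.6.1p1, counted without strand. The 5 rows that name no gene were left out of library sizes and tests. That of reads with no feature held 40.9% to 89.7% of the reads on genes, with no feature or ambiguous. The authors also deposited tables of distal polyadenylation site use, as a fraction, and skipped-exon read counts. Their columns of group comparisons were not used, and tables of local splice variations listed none of the 7 genes.

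Counts were normalized by TMM and tested in 1 fit of all 22 libraries with edgeR 4.0.16 (quasi-likelihood F test, R 4.3.3), cell type as the term, filterByExpr before testing, and 15 comparisons. P-values were adjusted over 22781 genes (Benjamini-Hochberg). A call took an adjusted p under 0.01 with 50 or more normalized counts on average. Each SE is the fold change over the square root of F. Lengths came from GENCODE M21 transcripts (merged coding exons for Muc2). Log2 CPM used a prior count of 2. The code was tested on simulated data. Libraries of a cell type differed beyond sampling noise, so each counted as 1 replicate; per the study they come from independent sorts. The total counts per library limit the precision of low genes.

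The 7 genes and the gene lists were chosen with earlier results of these data known. Named genes were the 7, the 3 genes nearest each by Pearson's r, up to 4 of the highest mean per list, those called against their list, and paralogs with a mean of at least 50. Alternatives were DESeq2 1.42.0, other scalings, filters and thresholds, 2 cell types alone, thinned counts, a replicate block and leaving out each library.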

Additional observations from a re-analysis of the deposited data

Results flagged for a closer look

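Dixon's test was run in 21 groups of 4 or 5 libraries (7 genes in SecPDG, Tuft and Enterocyte). In 5 groups the gap of the highest library to the next, over the range of the group, passed the 95% critical value. Chance passes it in about 1 in 20 groups only for independent groups of normally distributed values. The normalized counts used were not logged and the 7 genes share libraries, so the 5 cannot be read against that rate. SecPDG 2 stood apart for Fcgbp, at 912578 normalized counts against 205824 to 262331 in the others, and for Clca1, at 856242 against 53995 to 155435. Tuft 5 stood apart for Zg16, at 1316 against 550 to 769, and for Agr2, at 102312 against 33287 to 44995. Enterocyte 5 stood apart for Retnlb, at 3197 against 167 to 735. Each of the 3 libraries also had the highest sum of deep crypt secretory markers of its cell type, and the part of such cells was not tested.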

How the results depend on the processing

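Of the 15 counts of called members, those of SecPDG, Tuft and Enterocyte against Stem and of Tuft and Enterocyte against SecPDG stayed within 1.5 times under every alternative other than leaving out a library. AbsPro against Stem (2 called) had 4 with DESeq2, 5 with DESeq2's size factors, 5 with library totals and 7 with the 2 cell types alone. EEC against Stem (1) had 2, 3 and 0 with DESeq2, its size factors and the 2 cell types alone, and EEC against AbsPro (4) had 2, 0 and 1. EEC against SecPDG (6) had 3 with the 2 cell types alone. EEC against Enterocyte (2) had 6 with DESeq2, 5 with its size factors, upper quartile factors or library totals, 4 at adjusted p under 0.05 and 0 with the 2 cell types alone. EEC against Tuft (3) had 6 with DESeq2, its size factors, upper quartile factors or library totals and at adjusted p under 0.05, 5 with thinned counts and 5 with the replicate block. Enterocyte against AbsPro (1) had 3 with DESeq2, 4 with its size factors or library totals, and 2 with upper quartile factors or at adjusted p under 0.05. Enterocyte against Tuft (3) had 5 with DESeq2, its size factors, upper quartile factors or library totals, as had SecPDG against AbsPro (3), which had 6 with the 2 cell types alone, and Tuft against AbsPro (3), which also had 5 at adjusted p under 0.05 and with the 2 cell types alone. The cause was not tested.

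Leaving out a library gave 0 to 3 called in EEC against Stem, 1 to 3 in SecPDG against AbsPro, 0 to 1 in Enterocyte against AbsPro, 2 to 4 in EEC against AbsPro, 1 to 2 in Tuft against SecPDG, 2 to 6 in EEC against Tuft and 2 to 4 in EEC against Enterocyte. Fold changes that turned were none of those called except Zg16 in EEC against Stem (-0.35 to 3.08). Agr2 in EEC against Stem was 0.56 with DESeq2, 0.48 with its size factors, 0.0704 with upper quartile factors, 0.22 with library totals, 0.00836 with the 2 cell types alone and -1.09 to 0.0171 with a library left out. Muc2 in Tuft against SecPDG was -0.0493 without the filter, -0.16 with the replicate block and -0.11 to 0.38 with a library left out. Fcgbp in Tuft against AbsPro was -0.00816 with the replicate block and -0.0182 to 0.622 with a library left out. The ranges with a library left out were -0.22 to 1.99 for Fcgbp, -0.11 to 1.02 for Muc2 and -0.89 to 1.97 for Tff3 in EEC against Stem, -0.80 to 0.0870 for Zg16 in SecPDG against AbsPro, -1.73 to 0.20 for Clca1 in Enterocyte against SecPDG, -0.20 to 0.70 for Clca1 in Enterocyte against Tuft and -1.21 to 2.23 for Zg16 in EEC against Tuft. Where an arm kept 1 EEC library, it was assumed to vary like the other cell types.

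Libraries of different cell types with the same replicate number were no more alike than others. The 44 such pairs had a median correlation of deviations of 0.0020 (-0.391 to 0.501), and the 154 pairs with different numbers 0.0075 (-0.552 to 0.624). A pairing of single libraries cannot be seen from these medians. With the replicate block 3 members were called in AbsPro against Stem, 7 in SecPDG, 6 in Tuft, 5 in Enterocyte and 1 in EEC. Of the 42 mean levels, 5 moved by more than 1 SD with DESeq2's size factors, and 33 of 42 shares moved when counts were not divided by length. With Spearman's rho for Pearson's r, 3 correlations between the 7 genes moved and 18 did not. The depth of EEC 1, at 4122122 counts, limits what its low genes show.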
